A study of Mus musculus with 12 samples.

Results

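Whole lungs of mice with neutrophilic allergic airway inflammation were compared with whole lungs of mice with eosinophilic inflammation, 3 mice against 3 of the 12 in the series. The groups were taken from the sample titles: mice 23, 24 and 25 carry the neutrophilic label and mice 7, 8 and 9 the eosinophilic label. All were Balb/c mice exposed to house dust mite, as a mixture of Der p and Der f allergen extracts dosed in development units (DU) by allergen. Eosinophilic mice had 3 intraperitoneal injections of 0.75 DU of each allergen adsorbed to 1.5 mg of aluminium hydroxide, then intranasal challenge at the same dose on days 26 to 28. Neutrophilic mice had no adjuvant and no injection; they received 7.5 DU of each allergen intranasally, weekly, 4 times. The other mice, 3 that received intranasal PBS and 3 with a mixed inflammation (0.75 DU of each allergen intranasally, weekly, 4 times), entered the model and serve as reference levels. Allergen dose, route, adjuvant and timing all differ between the neutrophilic and eosinophilic groups and cannot be told apart. Each lung gave 300 ng of RNA to 1 Affymetrix Mouse Gene 1.0 ST array, and all values are RMA log2 signals of 1 probe set per gene. In whole lung, fewer cells of a type and less RNA per cell cannot be told apart.

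Asthma is divided by the granulocyte that enters the airway. Eosinophilic disease is classically tied to type 2 T cells, their cytokines IL-4, IL-5 and IL-13, and eotaxins. Neutrophilic disease is tied to IL-17, to CXC chemokines that bind CXCR2 on neutrophils, and to IL-1 and interferon-γ pathways. Alternatively activated macrophages, which respond to IL-4 and IL-13, express arginase 1 and the chitinase-like and resistin-like proteins. Mucin-producing goblet cells occur in both forms.

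3 of the 6 arrays had a compressed range and touch every result. The SD of log2 signal over all probe sets was 0.995 on the array of eosinophilic mouse 7, 1.52 on that of eosinophilic mouse 9 and 1.51 on that of neutrophilic mouse 23, against 1.77 to 2.04 on the other 9 arrays. Mouse 7 correlated with the median of the other arrays at r = 0.356 across probe sets, which are not independent replicates, against 0.863 to 0.980 elsewhere. On its array even Sftpc, the surfactant protein that marks alveolar type 2 cells, read 7.38, against 12.95 to 14.31 on the 11 others, and Actb read 9.05, against 13.09 or more. The 13 alveolar type 2 and surfactant genes averaged 6.22 on the array of mouse 7 and 10.09 to 11.23 on the 11 others. Dim genes read higher there: the 297 micro RNA genes had a median of 5.32 on the array of mouse 7 and 3.71 to 4.61 on the 11 others. For a dim gene, a mouse 7 value above the neutrophilic mice is therefore weak evidence of a difference between the groups. Results are therefore given from all 12 arrays, without mouse 7 (2 eosinophilic against 3 neutrophilic mice), and without mice 7, 9 and 23. The last leaves eosinophilic mouse 8 against neutrophilic mice 24 and 25, so that the lone mouse is assumed to vary as mice do within the other groups.

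A gene was called when its Benjamini-Hochberg adjusted p in limma's moderated test, over all 19937 genes, was under 0.05. With all 12 arrays 23 genes (0.115%) were called, 22 (0.11%) higher and 1 (0.00502%) lower in neutrophilic lung. Without mouse 7 the count was 38 (0.191%), with 28 (0.14%) higher and 10 (0.0502%) lower. Without the 3 low-range arrays it was 265 (1.33%), with 113 (0.567%) higher and 152 (0.762%) lower. Single arrays moved the 12-array count strongly: it was 0 without neutrophilic mouse 24 or 25, 4 without eosinophilic mouse 9, 44 without neutrophilic mouse 23 and 2777 without eosinophilic mouse 8, which leaves both low-range eosinophilic arrays as that group. With 0 genes called, 1160 genes without mouse 24 and 955 without mouse 25 had an unadjusted p under 0.05 in limma. Both counts are close to a share of 0.05 of the 19937 genes, which is expected with no difference at all. 22 of the 23 genes of the 12-array fit, all but Mir6516, were also called in both reduced fits, and all 23 kept their direction in every alternative run. In all 23 the 3 neutrophilic values lay entirely beyond the 3 eosinophilic values, a separation that 840 genes (4.21%) showed upward and 796 (3.99%) downward.

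**Figure D1:**
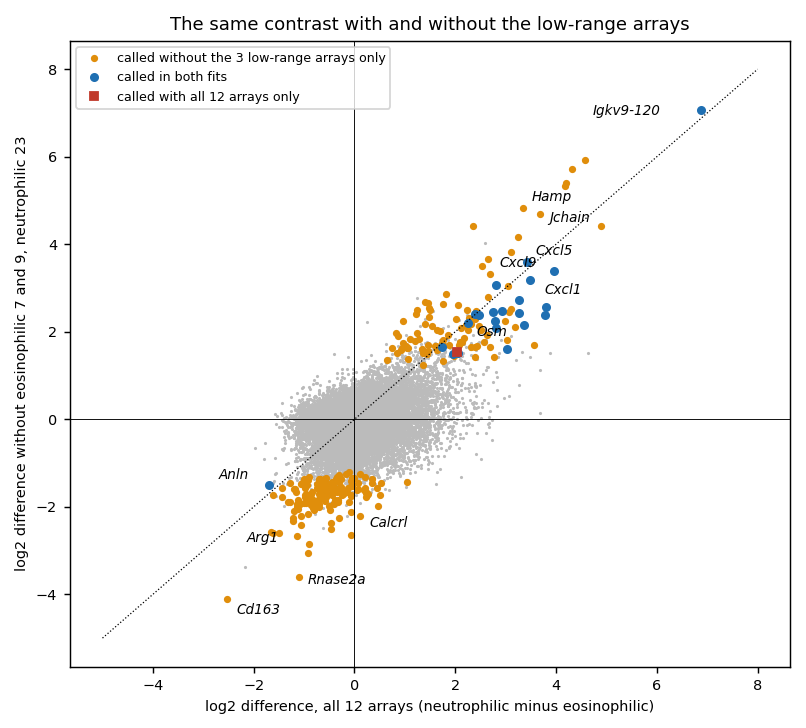
Each dot is 1 gene, with its log2 difference (neutrophilic minus eosinophilic) from all 12 arrays on the x axis and from the 9 arrays without eosinophilic mice 7 and 9 and neutrophilic mouse 23 on the y axis; the dotted line marks equality. 22 genes were called in both fits (blue) and 1 with all 12 arrays only (red), while the genes called without the low-range arrays only (orange) lie in both directions; among those lower in neutrophilic lung, Cd163 is at -2.52 on the x axis and Pcna at -0.05.

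The promoters of 3 CXCR2 ligands are shown first, because they are neighbouring neutrophil chemokine genes on chromosome 5 that differed in their calls: Cxcl1 was called with all 12 arrays, Cxcl2 without the low-range arrays and Cxcl3 in neither of these fits. Sequences are RefSeq's (mouse GRCm38.p6), 5′ to 3′ on the strand of the gene, and end at the base before the annotated start site. Capitals mark the longest run of letters that all 3 windows of 250 bases share, GGGAATTTCCC, which holds a site of the form bound by NF-κB.
Cxcl1, chr5:90891125-90891244, + strand: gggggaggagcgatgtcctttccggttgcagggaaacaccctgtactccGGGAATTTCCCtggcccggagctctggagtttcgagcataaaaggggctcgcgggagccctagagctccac
Cxcl2, chr5:90903779-90903898, + strand: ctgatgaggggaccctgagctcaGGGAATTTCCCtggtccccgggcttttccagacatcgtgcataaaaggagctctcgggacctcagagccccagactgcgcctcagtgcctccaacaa
Cxcl3, chr5:90785981-90786100, + strand: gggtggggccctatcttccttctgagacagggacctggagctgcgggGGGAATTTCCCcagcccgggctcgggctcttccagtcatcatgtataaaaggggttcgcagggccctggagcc
The shared run of 11 letters begins 71, 97 and 73 bases before the start sites of Cxcl1, Cxcl2 and Cxcl3. Searched on both strands of the 250 bases before each start site, it stood in 14 of 32851 RefSeq windows (0.0426%). Of the 15 measured genes of the CXCR2 and IL-17 list that have a window, these 3 hold it. The run was chosen from these genes, so that its presence in them is a description.

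Of the neutrophil-recruiting chemokines, Cxcl5 and Cxcl1 were called higher in neutrophilic lung with all 12 arrays. Cxcl5, an epithelial CXCR2 ligand, read 5.32, 5.59 and 5.07 in eosinophilic mice 7, 8 and 9 and 7.86, 9.14 and 9.22 in neutrophilic mice 23, 24 and 25. The groups did not overlap, controls sat at 3.93 to 4.59, and mixed lungs at 8.63 to 9.15 reached the neutrophilic level. The difference was 3.41 ± 0.37 (SE, log2; 10.7-fold, adjusted p = 0.0116) with all 12 arrays, 3.41 ± 0.40 (adjusted p = 0.00374) without mouse 7 and 3.60 ± 0.33 (adjusted p = 0.000159) without the low-range arrays. It passed in 13 of 16 alternatives, with adjusted p from 0.000159 to 0.326.

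Cxcl1, the ligand of CXCR2 also known as KC, read 3.87, 6.24 and 6.60 in eosinophilic and 8.34, 9.37 and 9.48 in neutrophilic lungs. The eosinophilic values of mice 8 and 9 were above the control range of 5.23 to 5.66 and that of mouse 7 was below it. The log2 difference was 3.49 ± 0.58 (SE; 11.2-fold, adjusted p = 0.0459) with all arrays, 2.64 ± 0.34 (adjusted p = 0.00538) without mouse 7 and 3.18 ± 0.30 (adjusted p = 0.000159) without the low-range arrays. It passed in 10 of 16 alternatives, with adjusted p from 0.000159 to 0.895.

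Cxcl2, the third of these ligands, read 6.19, 7.86 and 5.79 in eosinophilic lungs and 6.70, 9.74 and 10.34 in neutrophilic lungs, where low-range mouse 23 overlapped the eosinophilic values. It was called without the low-range arrays (log2 2.18 ± 0.48, SE, adjusted p = 0.0402) and not with all 12 (2.32 ± 0.81, adjusted p = 0.427). Cxcl3 separated the groups, 5.96 to 7.09 against 7.78 to 7.96, but was not called with all arrays (1.49 ± 0.32, adjusted p = 0.152) or without the low-range arrays (0.77 ± 0.32, adjusted p = 0.317). Cxcr2, the receptor, overlapped between groups (6.21 to 8.81 and 7.45 to 9.46) and was not called in any alternative.

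Of the IL-17 family, Il17f was called higher and Il17a was not called. Il17f read 4.86, 4.80 and 5.0 in eosinophilic and 5.84, 6.35 and 6.46 in neutrophilic lungs, without overlap, and was called without the low-range arrays (log2 1.61 ± 0.33, SE, adjusted p = 0.0306) but not with all 12 (1.33 ± 0.28, adjusted p = 0.139). Il17a, the better known family member, had 5.34 to 6.48 in eosinophilic and 5.45 to 6.50 in neutrophilic lungs. Nfkbiz, an inducible NF-κB cofactor of the IL-17 response, read 5.01, 6.43 and 5.94 against 7.32, 8.01 and 8.57, and was called without the low-range arrays (1.86 ± 0.34, adjusted p = 0.0208, adjusted p = 0.0757 with all 12). Csf3, which encodes the granulocyte growth factor G-CSF, read 6.11, 4.98 and 4.97 in eosinophilic lungs. It stood at 7.06 and 7.40 in neutrophilic mice 24 and 25 but at 4.48 in mouse 23, and was called without the low-range arrays alone among these fits (2.25 ± 0.37, adjusted p = 0.0124). Counted over the 21 measured genes of the CXCR2 and IL-17 list, 2 were higher with all 12 arrays and 6 without the low-range arrays (Cxcl1, Cxcl2, Cxcl5, Csf3, Il17f and Nfkbiz), and none was lower in either. The median log2 difference of the list was 1.20 with all arrays and 0.77 without the low-range arrays, beside -0.025 and -0.004 over all genes. For 10 housekeeping genes the median was 0.72 and -0.48 in these fits.

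Few neutrophil markers passed, though 16 of 19 had a positive difference with all arrays and 17 without the low-range arrays. Of 10 housekeeping genes, 10 had a positive difference with all arrays and 1 without the low-range arrays. Ly6g, the surface antigen that defines mouse neutrophils, read 5.24, 6.41 and 4.77 in eosinophilic and 5.96, 8.38 and 8.73 in neutrophilic lungs, with mouse 23 again inside the eosinophilic range. It was called without the low-range arrays (log2 2.14 ± 0.38, SE) and not with all 12 (adjusted p = 0.343). The same held for Il1r2, the decoy receptor for IL-1 (2.62 ± 0.55 without the low-range arrays, adjusted p = 0.399 with all 12). Il1r2 overlapped too, with mouse 23 at 6.13 and eosinophilic mouse 9 at 6.22. S100a8 and S100a9, the subunits of calprotectin in neutrophil cytosol, did not overlap between the groups: S100a8 was 6.17 to 7.65 against 8.11 to 9.53, and S100a9 6.75 to 7.85 against 8.83 to 10.14. Neither was called with all arrays (adjusted p = 0.227 and 0.194) or without the low-range arrays (adjusted p = 0.0869 and 0.0508). The granule genes of neutrophil precursors, Mpo and Elane, stayed at 3.83 to 5.70 in all 6 lungs. Ngp, another neutrophil granule gene, read 6.08, 5.49 and 5.71 in eosinophilic and 4.48, 7.85 and 8.69 in neutrophilic lungs. Its log2 difference was 1.24 ± 0.87 (SE, adjusted p = 0.56) with all 12 arrays and 2.78 ± 0.66 without the low-range arrays. Of 19 measured neutrophil genes, 0 were called with all 12 arrays and 2 without the low-range arrays, both higher, and the list median was 1.20 and 0.65. The mean level of the list was 5.78, 6.76 and 6.25 in eosinophilic mice 7, 8 and 9, 6.43, 7.65 and 7.92 in neutrophilic mice 23, 24 and 25, and 6.91 to 7.55 in mixed lungs, so that eosinophilic and neutrophilic mice overlapped on it.

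**Figure D2:**
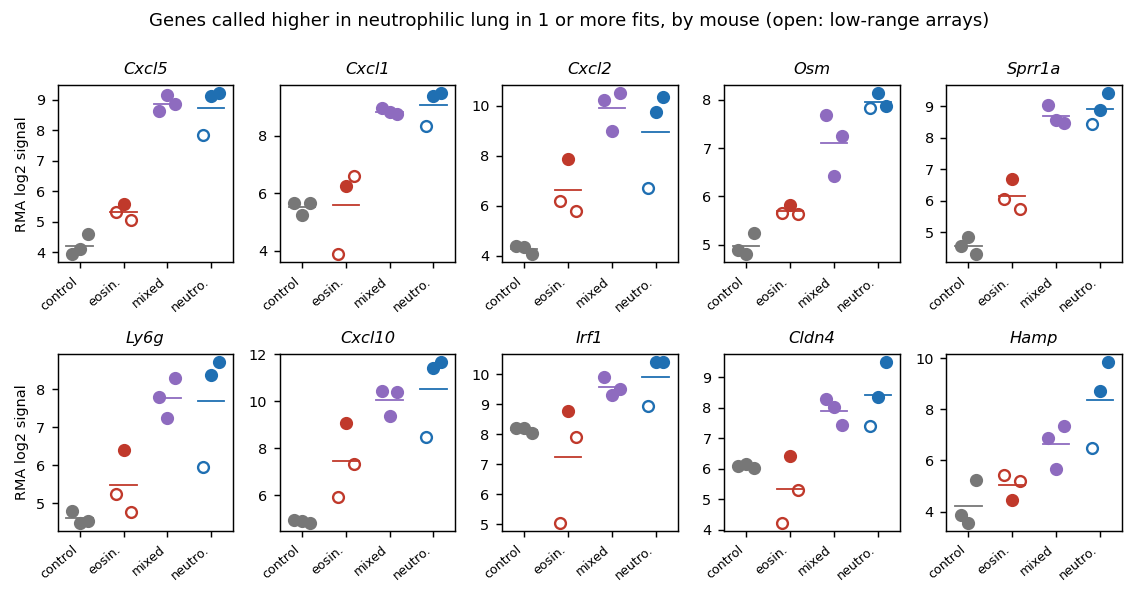
RMA log2 signal (y axis) of 10 genes in every mouse, by group (x axis); bars are group means and open circles the low-range arrays of mice 7, 9 and 23. Cxcl5, Cxcl1, Osm and Sprr1a keep all 3 neutrophilic mice above all 3 eosinophilic mice, while Cxcl2 and Ly6g have the open circle of mouse 23 within the eosinophilic range.

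Oncostatin M, a cytokine of the IL-6 family made by neutrophils and macrophages, and an epithelial stress gene were also called with all 12 arrays. Osm read 5.65, 5.82 and 5.63 in eosinophilic and 7.84, 8.14 and 7.87 in neutrophilic lungs, and at 6.42 to 7.68 in mixed lungs it was intermediate. The difference of 2.25 ± 0.32 (SE, log2; 4.76-fold, adjusted p = 0.0162) was 2.19 ± 0.42 (adjusted p = 0.0225) without the low-range arrays. Sprr1a, a cross-linked envelope protein of stressed squamous epithelium, read 6.04, 6.69 and 5.74 against 8.43, 8.88 and 9.41. Its difference was 2.75 ± 0.34 (6.75-fold, adjusted p = 0.0116) with all arrays and 2.46 ± 0.35 (adjusted p = 0.00523) without the low-range arrays. Each passed in 12 of 16 alternatives. Socs3, the feedback inhibitor of IL-6 family receptors, chosen after its values were seen, read 5.82, 8.45 and 7.93 against 9.33, 10.03 and 10.73 and was called without the low-range arrays (1.93 ± 0.36, adjusted p = 0.0221) but not with all 12 (adjusted p = 0.152).

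Feedback regulators of NF-κB, also chosen after their values were seen, were called without the low-range arrays. Tnip1, a partner of the ubiquitin-editing enzyme A20, read 5.41, 6.72 and 6.23 in eosinophilic and 7.40, 8.58 and 9.21 in neutrophilic lungs. Tnfaip3, which encodes A20, and Zc3h12a, an RNase that degrades cytokine messages, were less apart. Tnfaip3 read 5.67, 7.47 and 6.80 against 7.27, 9.78 and 10.13, so that mouse 8 was above mouse 23 and the groups overlapped. Zc3h12a read 5.48, 6.87 and 6.81 against 6.91, 8.68 and 9.63, with mouse 23 just above mouse 8. Without the low-range arrays all 3 were called, at 2.18 ± 0.42 (SE, log2, adjusted p = 0.0238), 2.48 ± 0.48 (adjusted p = 0.0238) and 2.28 ± 0.50 (adjusted p = 0.039), and none with all 12 arrays (adjusted p = 0.139 to 0.388).

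Of 25 measured interferon-stimulated genes, 6 were called higher in neutrophilic lung without the low-range arrays and 0 with all 12. Cxcl9, a ligand of CXCR3 on activated T cells, read 4.92, 7.07 and 6.38 in eosinophilic lungs and 5.67, 10.77 and 10.02 in neutrophilic lungs. Cxcl10, its neighbour on chromosome 5, read 5.91, 9.08 and 7.35 against 8.47, 11.40 and 11.68. Both overlap between the groups through mouse 23. Without the low-range arrays Cxcl9 was 3.32 ± 0.56 (SE, log2, adjusted p = 0.0143) and Cxcl10 2.46 ± 0.39 (adjusted p = 0.0104) higher; with all 12 arrays the p-values were 0.457 and 0.327. Cxcl11, the third ligand, was called likewise (2.34 ± 0.39, adjusted p = 0.468 with all 12). Its mouse 23 value of 5.68 was no higher than the eosinophilic range of 5.68 to 6.26.

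Irf1, a transcription factor induced by interferon-γ, separated the groups, with 5.05, 8.76 and 7.91 in eosinophilic and 8.95, 10.42 and 10.39 in neutrophilic lungs. The guanylate-binding GTPase Gbp5 also separated them, with 4.84, 6.67 and 5.95 against 6.94, 8.16 and 8.57. Irf1 (1.65 ± 0.31, SE, log2, adjusted p = 0.0221), Gbp5 (1.70 ± 0.35, adjusted p = 0.0306) and Gbp3 (1.57 ± 0.35, adjusted p = 0.039) were called without the low-range arrays only among the 3 fits. The antiviral genes Ifit1 and Ifit3 were 8.53 to 9.74 in eosinophilic mice 8 and 9 and 7.98 to 9.04 in neutrophilic lungs, and were called in neither of these fits. Ifng itself was between 3.86 and 6.39 in the 6 lungs. None of the list was called lower in either fit, and the list median was 0.45 without the low-range arrays and 1.05 with all 12. MHC class II had a list median of 1.69 with all arrays and 0.86 without the low-range arrays, with 0 of 9 called in each.

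The largest difference among the genes followed was that of an antibody gene. Igkv9-120, a kappa light chain variable segment, read 5.21, 5.48 and 4.37 in eosinophilic lungs and 10.59, 12.31 and 12.77 in neutrophilic lungs. Controls were at 5.88 to 6.56 and mixed lungs spread from 6.95 to 11.64. The difference was 6.87 ± 0.91 (SE, log2; 117-fold, adjusted p = 0.013) with all arrays, 6.97 ± 0.97 (adjusted p = 0.00886) without mouse 7 and 7.07 ± 1.13 (adjusted p = 0.0104) without the low-range arrays. Variable segments are alike in sequence, so that a probe set can read transcripts of related segments.

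Igha, the constant region of IgA, read 5.79, 5.52 and 5.45 in eosinophilic and 7.20, 10.83 and 11.67 in neutrophilic lungs. Jchain, which joins IgA dimers and IgM pentamers, read 6.31, 6.23 and 6.13 against 7.89, 11.31 and 10.51. Neither overlapped, and neither was called with all arrays (adjusted p = 0.327 and 0.165); without the low-range arrays Igha was 5.72 ± 1.21 (SE, log2, adjusted p = 0.0358) and Jchain 4.68 ± 0.81 (adjusted p = 0.0148) higher. Ighm, the IgM constant region, chosen after its values were seen, was 5.41 to 6.82 against 7.67 to 10.90 and was called both without mouse 7 (3.62 ± 0.66, adjusted p = 0.0467) and without the low-range arrays (4.17 ± 0.54, adjusted p = 0.00276), and not with all 12 (adjusted p = 0.119). The other 3 kappa segments that the rule named were 5.93 ± 0.98 (adjusted p = 0.0127), 5.39 ± 1.01 (adjusted p = 0.0216) and 4.41 ± 0.89 (adjusted p = 0.0298) higher without the low-range arrays and were not called with all 12 (adjusted p = 0.275 to 0.478). The last of these, Igkv8-30, overlapped between the groups, with 4.32, 3.45 and 4.79 in eosinophilic and 3.90, 9.20 and 6.53 in neutrophilic lungs, and its difference with all 12 arrays was 2.35 ± 1.01. Over the 11 immunoglobulin variable and constant segments measured, 8 were called higher without the low-range arrays, 2 without mouse 7 and 1 with all 12, and 0 lower. Their median level was 4.99 to 5.67 in eosinophilic, 4.96 to 5.38 in control, 6.59 to 8.91 in mixed and 6.87 to 10.15 in neutrophilic lungs, without overlap between the last and the first.

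Genes of the B lineage were called without the low-range arrays. Pou2af1, the B cell coactivator of antibody transcription, read 4.80, 6.12 and 5.45 against 6.52, 9.08 and 8.73 (log2 2.79 ± 0.42, SE, adjusted p = 0.00831 without the low-range arrays, adjusted p = 0.166 with all 12). Irf4, the plasma cell transcription factor, overlapped between the groups, with mouse 23 at 6.26 against 5.44 to 6.53 in eosinophilic lungs. Irf4 (2.02 ± 0.32), the B cell kinase gene Blk (1.79 ± 0.33) and the inhibitory receptor Cd22 (1.49 ± 0.33) were called without the low-range arrays. That made 5 of 17 measured B and plasma cell genes, Jchain included, called higher there; with all 12 arrays 0 were called. The list median was 1.21 with all 12 arrays and 1.16 without the low-range arrays, and all 17 differences were positive in the second fit. Pigr, the epithelial receptor that carries IgA and IgM into the airway, read 5.05, 8.93 and 9.53 against 9.62, 10.61 and 10.58, without overlap, and was called without the low-range arrays (1.66 ± 0.31, adjusted p = 0.0221, adjusted p = 0.427 with all 12). Ccl19, the lymphoid chemokine that binds CCR7, chosen after its values were seen, was 8.10 to 9.49 against 9.54 to 10.43 and was called without mouse 7 (1.82 ± 0.32, adjusted p = 0.0391) and without the low-range arrays (2.18 ± 0.34, adjusted p = 0.00995), and not with all 12 (1.40 ± 0.39, adjusted p = 0.334). Of 23 T and NK cell genes 0 were called with all 12 arrays. Ctla4, an inhibitory receptor of activated and regulatory T cells, read 5.22, 5.10 and 5.16 in eosinophilic and 5.03, 8.05 and 7.87 in neutrophilic lungs. Mouse 23 was thus below all 3 eosinophilic mice. The Ctla4 difference was 2.86 ± 0.43 without the low-range arrays and 1.82 ± 0.64 (adjusted p = 0.427) with all 12.

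Other genes higher in neutrophilic lung concerned iron, nitric oxide, junctions and matrix. Hamp, which encodes the iron hormone hepcidin, read 5.42, 4.47 and 5.18 in eosinophilic and 6.50, 8.71 and 9.87 in neutrophilic lungs (log2 4.82 ± 0.68, SE, adjusted p = 0.00503 without the low-range arrays; 3.34 ± 0.74, adjusted p = 0.165 with all 12). Nos2, the inducible nitric oxide synthase, read 5.24, 5.08 and 5.11 against 5.43, 7.19 and 6.63 and was called without the low-range arrays (1.83 ± 0.36, adjusted p = 0.0263) and not with all 12 (1.27 ± 0.39, adjusted p = 0.394). The tight junction gene Cldn4, which encodes claudin-4, read 4.23, 6.42 and 5.30 in eosinophilic and 7.41, 8.36 and 9.51 in neutrophilic lungs; it missed the threshold with all arrays (3.11 ± 0.56, adjusted p = 0.072) and passed without the low-range arrays (2.52 ± 0.43, adjusted p = 0.0143). Cldn1, another tight junction gene, read 6.01, 6.19 and 5.62 against 5.88, 7.60 and 7.54, with mouse 23 inside the eosinophilic range. Its difference was 1.38 ± 0.31 without the low-range arrays and 1.07 ± 0.41 (adjusted p = 0.457) with all 12. Of 28 tight junction genes 0 were called with all 12 arrays, and Ocln, Tjp1 and Cldn18 were not called in any alternative. Nfil3, a transcription factor of the clock output and of IgE switching, read 6.55 to 6.67 against 7.42 to 8.71 and was called without the low-range arrays (2.04 ± 0.35, adjusted p = 0.0148, adjusted p = 0.165 with all 12).

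Among 23 inflammasome and IL-1 genes 1, Il1r2, was called without the low-range arrays and 0 with all 12. Il1b overlapped, at 6.14, 9.46 and 6.87 in eosinophilic and 9.12, 10.47 and 10.86 in neutrophilic lungs (log2 2.66 ± 0.77, SE, adjusted p = 0.35 with all arrays and adjusted p = 0.438 without the low-range arrays). Nlrp3, the inflammasome sensor, stood at 6.50 and 7.22 in mice 24 and 25 and at 4.88 in mouse 23, against 4.76 to 6.08 in eosinophilic lungs (1.67 ± 0.53, adjusted p = 0.149 without the low-range arrays). Of 21 measured matrix genes 1, Eln, which encodes elastin, was called there (1.76 ± 0.36, adjusted p = 0.0298) and not with all 12 (2.58 ± 0.67, adjusted p = 0.316); it overlapped, at 4.89 to 7.61 against 7.18 to 9.51.

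Small structured RNAs made up most of the genes called with all 12 arrays. Of the 23, 12 were snoRNAs, which guide modification and processing of ribosomal RNA; others were the RNase P RNAs Rprl1 and Rprl2, the Cajal body guide RNA Scarna13 and the vault RNA Vaultrc5. Vaultrc5 read 4.89, 6.74 and 7.01 in eosinophilic and 10.23, 10.06 and 10.21 in neutrophilic lungs (log2 3.95 ± 0.46, SE; 15.5-fold, adjusted p = 0.0116), and its difference was 3.40 ± 0.35 (adjusted p = 0.000359) without the low-range arrays. Snord15b, a box C/D snoRNA, read 5.87, 7.88 and 6.05 against 10.32, 10.33 and 10.56 (3.80 ± 0.46, adjusted p = 0.0116, adjusted p = 0.005 without the low-range arrays). Rprl1 was 6.23 to 6.26 in eosinophilic and 7.87 to 8.16 in neutrophilic lungs (1.73 ± 0.24, adjusted p = 0.0158), against 6.26 to 6.65 in control and mixed lungs. The snoRNAs were outside the rule for named genes and were chosen after their values were seen.

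Over the 53 measured snoRNAs, 12 were called higher with all 12 arrays, 14 without mouse 7 and 19 without the low-range arrays, and 0 lower in any of these. The median log2 difference of the class was 1.55, 1.45 and 1.41 in the 3 fits, beside -0.025, -0.019 and -0.004 over all genes. Its median level was 5.65, 5.97 and 5.56 in eosinophilic mice 7, 8 and 9, 5.80 to 6.68 in controls, 6.74 to 7.16 in mixed lungs and 7.42 to 7.90 in neutrophilic lungs, so that neutrophilic lungs were above all others while eosinophilic and control lungs overlapped. For the 16 small structured RNAs called, selected by the difference itself, the medians relative to the control mean were -1.91, -0.42 and -1.23 in eosinophilic mice 7, 8 and 9, -0.39 to 0.22 in controls and 1.58 to 1.64 in neutrophilic mice. Mouse 8 was thus close to the lowest control, and the low-range arrays of mice 7 and 9 were further below. Low-range mouse 23 read as high as mice 24 and 25 here. The 297 micro RNA genes did not share this: 1 was called with all arrays, with a class median of -0.36 with all arrays and 0.04 without the low-range arrays.

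**Figure D3:**
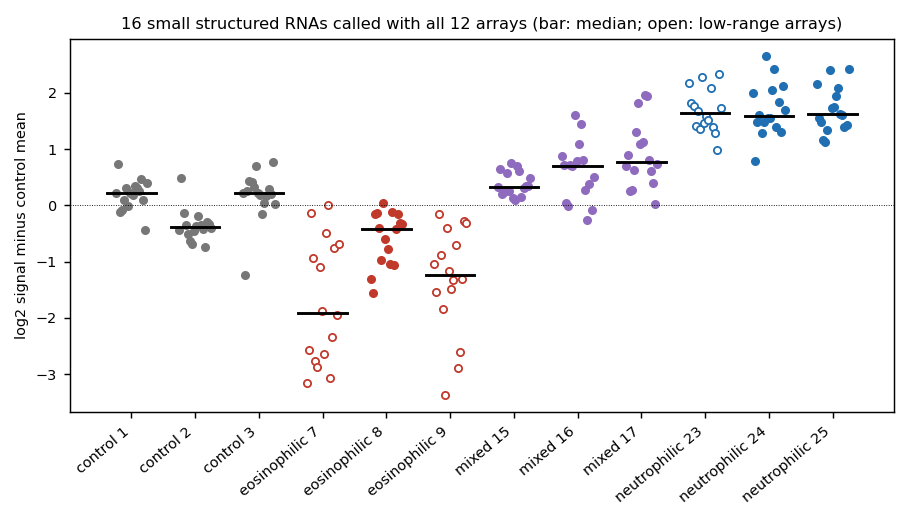
Log2 signal of the 16 small structured RNAs called with all 12 arrays, minus the mean of the 3 controls (y axis), for each mouse (x axis); bars are the medians and open circles the low-range arrays. All 3 neutrophilic mice sit near 1.6 and all 3 eosinophilic mice below 0, mouse 8 (-0.42) next to the lowest control (-0.39); the RNAs shown were selected by the difference itself.

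The micro RNA gene called was Mir6516, at 5.45, 6.49 and 5.99 in eosinophilic and 7.97, 7.72 and 8.34 in neutrophilic lungs (log2 2.03 ± 0.32, SE, adjusted p = 0.0337 with all arrays, adjusted p = 0.0508 without the low-range arrays). Its mature arms are shown to identify it, from RefSeq, with the seed (bases 2 to 8) in capitals; the probe set is named for the gene and no value was measured for either arm.
miR-6516-5p: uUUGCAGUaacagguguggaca
miR-6516-3p: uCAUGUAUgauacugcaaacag

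Without mouse 7 and without the low-range arrays, a few genes known from macrophages were called lower in neutrophilic lung, while 0 of 17 alveolar macrophage genes and 0 of 21 monocyte-derived macrophage and dendritic cell genes were called in any of the 3 fits. Cd163, the scavenger receptor for haptoglobin-haemoglobin, read 5.48, 9.21 and 8.70 in eosinophilic mice 7, 8 and 9 and 5.63, 4.85 and 5.34 in neutrophilic mice. Mice 8 and 9 were far above every control, mixed and neutrophilic lung (4.0 to 6.22), and mouse 7 was not. The log2 difference was -3.68 ± 0.32 (SE; 12.8-fold lower in neutrophilic lung, adjusted p = 0.000267) without mouse 7 and -4.11 ± 0.35 (adjusted p = 0.000155) without the low-range arrays, and -2.52 ± 0.72 (adjusted p = 0.343) with all 12. It passed in 4 of 16 alternatives, with adjusted p from 0.000155 to 0.895.

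Npl, a sialic acid lyase, and Folr2, a folate receptor of resident macrophages, were called in the same 2 fits. Npl read 5.48, 8.10 and 7.42 against 5.44 to 5.56, and Folr2 read 6.24, 8.30 and 7.21 against 6.02 to 6.06. Without mouse 7 Npl was -2.26 ± 0.28 (SE, log2, adjusted p = 0.00538) and Folr2 -1.72 ± 0.31 (adjusted p = 0.0461). Folr2 did not overlap between groups even with mouse 7 (6.24), but dim genes read high on that array. Neither gene was called with all 12 arrays (adjusted p = 0.416 for each). Arg1, which encodes arginase 1, read 6.73, 10.36 and 8.94 in eosinophilic and 7.23, 7.80 and 7.59 in neutrophilic lungs. It was -2.11 ± 0.37 (adjusted p = 0.0338) without mouse 7, -2.67 ± 0.30 (adjusted p = 0.000889) without the low-range arrays and -1.14 ± 0.65 (adjusted p = 0.519) with all 12. Controls were at 4.69 to 4.93, so Arg1 was above control in neutrophilic lungs too.

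Other genes of alternative activation were mostly not called. Retnla, the resistin-like FIZZ1, read 6.87, 13.03 and 12.25 in eosinophilic mice 7, 8 and 9 and 12.03 to 12.50 in neutrophilic lungs. Its log2 difference was -0.99 ± 0.36 (SE) without the low-range arrays and 1.48 ± 1.13 (adjusted p = 0.585) with all 12. Chil3, the chitinase-like protein Ym1, was 8.27, 11.07 and 10.80 against 10.15 to 11.10. Its difference was -0.45 ± 0.49 without the low-range arrays and 0.45 ± 0.63 (adjusted p = 0.76) with all 12. Clec10a, a galactose lectin of macrophages and dendritic cells, was the other list member called without the low-range arrays (-1.79 ± 0.29, adjusted p = 0.0104), with 5.40 to 6.71 against 4.91 to 5.0. That was 2 lower of 12 and 0 higher, with a list median of -0.50; with all 12 arrays 0 were called and the median was 0.59. The list averaged 6.11 on the array of mouse 7, 9.37 and 8.67 on those of mice 8 and 9, and 8.14 to 8.81 in neutrophilic lungs.

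Eosinophil genes were few. Rnase2a, an eosinophil-associated ribonuclease, read 6.56, 11.76 and 10.25 in eosinophilic, 8.94, 8.63 and 7.69 in neutrophilic and 9.20 to 9.99 in mixed lungs, against 3.42 to 4.51 in controls. Without the low-range arrays it was -3.59 ± 0.48 (SE, log2; 12.1-fold lower, adjusted p = 0.00331); without mouse 7 it missed the threshold (-2.58 ± 0.49, adjusted p = 0.0588), as with all 12 (adjusted p = 0.623). Alox15, the lipoxygenase of eosinophils and macrophages, was called without the low-range arrays (-1.73 ± 0.38, adjusted p = 0.039), with mouse 8 at 8.16 and mouse 9 at 5.91 against 6.07 to 6.80. The granule gene Epx, which encodes eosinophil peroxidase, read 5.62, 4.97 and 5.31 in eosinophilic and 4.94, 4.87 and 4.56 in neutrophilic lungs, without overlap. Controls were at 4.20 to 4.21, and Epx was called in no alternative (-0.51 ± 0.30, adjusted p = 0.521 with all 12). Prg2, which encodes major basic protein, was at 4.04 to 5.88 in all 12 lungs. Of 11 eosinophil genes 6 had a negative difference with all 12 arrays and 10 without the low-range arrays. Counted over 11 measured eosinophil genes, 2 were lower and 0 higher without the low-range arrays, and 0 were called with all 12.

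Of 21 type 2 cytokine and chemokine genes 1 was called without the low-range arrays and 0 with all 12. Il4, Il5 and Il13 were at 3.84 to 5.77 in the 6 lungs and were called in no alternative. Ccl17 read 5.31, 9.60 and 8.78 in eosinophilic and 9.96, 10.76 and 9.93 in neutrophilic lungs, without overlap. Its difference was 2.32 ± 0.81 (SE, log2, adjusted p = 0.42) with all 12 arrays and 0.74 ± 0.39 without the low-range arrays. Ccl22 read 5.80, 7.66 and 6.29 against 7.52, 8.87 and 8.34, and differed by 1.66 ± 0.48 (adjusted p = 0.343) and 0.95 ± 0.39. The list had 3 of 21 genes separating the groups upward and 2 downward, beside 4.21% and 3.99% of all genes. Its medians were 0.04 and -0.17 in these fits. Ccl11 (eotaxin 1) read 6.66, 9.53 and 7.32 in eosinophilic and 8.93, 9.66 and 9.61 in neutrophilic lungs, a difference of 0.11 ± 0.33 (SE, log2, adjusted p = 0.976) without the low-range arrays. Ccl24 (eotaxin 2) was the gene called, lower without the low-range arrays (-2.07 ± 0.36, adjusted p = 0.0147), and there mouse 8 stood alone at 7.83 while mouse 9 read 5.11 and neutrophilic lungs 5.49 to 6.14. Il33, an alarmin that activates innate type 2 cells, was 5.67, 10.60 and 9.61 in mice 7, 8 and 9 and 9.87 to 10.17 in neutrophilic lungs. Its difference was 1.35 ± 0.91 (adjusted p = 0.551) with all 12 arrays and -0.59 ± 0.42 without the low-range arrays.

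Muc5ac, the inducible airway mucin, read 5.25, 6.83 and 5.96 in eosinophilic and 7.37, 7.50 and 7.53 in neutrophilic lungs; the groups did not overlap, and it was not called with all arrays (log2 1.45 ± 0.36, SE, adjusted p = 0.275) or without the low-range arrays (0.68 ± 0.32, adjusted p = 0.411). Clca1, which is secreted with mucins, read 10.01 and 11.15 in mice 8 and 9 against 11.13 to 11.62, with controls at 4.27 to 4.55, so that it was above control in both models. Its difference was 1.16 ± 0.30 without the low-range arrays and 2.30 ± 0.94 (adjusted p = 0.475) with all 12, where mouse 7 read 5.88. The disulfide isomerase gene Agr2 read 5.80, 8.70 and 7.24 in mice 7, 8 and 9 against 5.90 to 7.07. Its difference was -2.16 ± 0.40 without the low-range arrays and -0.92 ± 0.58 (adjusted p = 0.536) with all 12. In the 12-array fit and without mouse 7, 0 of 22 mucous cell genes were called. With quantile normalization and without mouse 7, 1 was called, Agr2, lower in neutrophilic lung (-1.75 ± 0.34, adjusted p = 0.0409 in limma). A p above the threshold does not show that the mucins were at the same level.

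**Figure D4:**
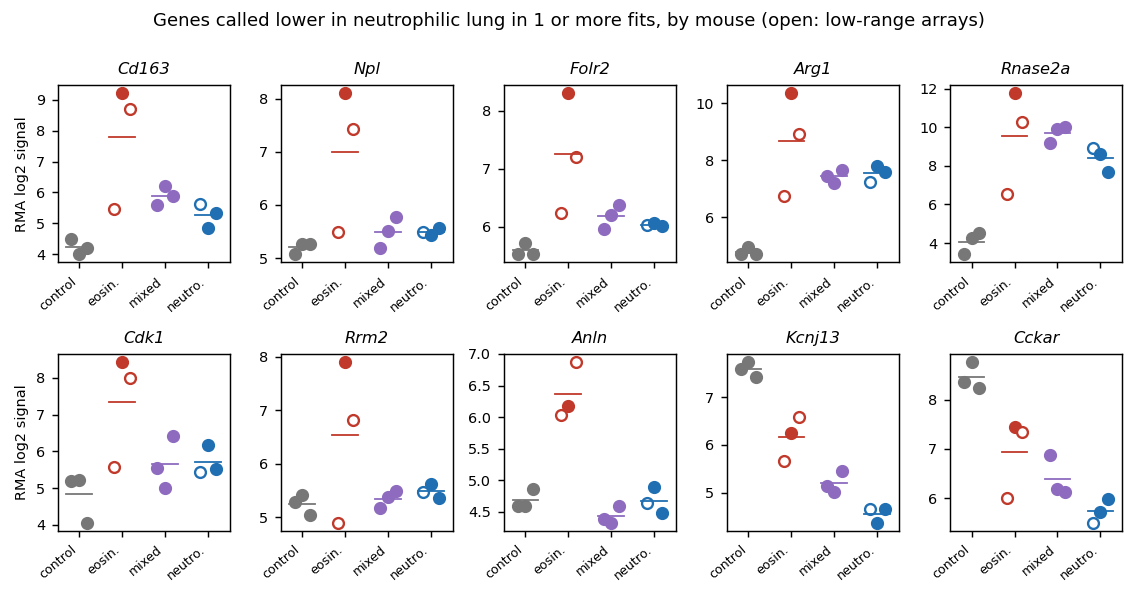
RMA log2 signal (y axis) of 10 genes in every mouse, by group (x axis); bars are group means and open circles the low-range arrays of mice 7, 9 and 23. For Cd163, Npl, Arg1, Cdk1 and Rrm2 eosinophilic mice 8 and 9 lie above all neutrophilic mice and mouse 7 does not. For Anln, Kcnj13 and Cckar all 3 eosinophilic mice do, though dim genes read high on the array of mouse 7.

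Of 25 measured cell cycle genes, 0 were called with all 12 arrays, 2 without mouse 7 and 7 without the low-range arrays, all lower in neutrophilic lung. Anln, which encodes the anillin of the cytokinetic ring and is outside that list, was the 1 gene called lower with all 12 arrays: 6.03, 6.18 and 6.88 in eosinophilic against 4.64, 4.89 and 4.48 in neutrophilic lungs, with controls at 4.59 to 4.87. The difference was -1.69 ± 0.28 (SE, log2; 3.23-fold lower, adjusted p = 0.0466), and -1.50 ± 0.30 (adjusted p = 0.0298) without the low-range arrays. It passed in 9 of 16 alternatives. Cdk1, the kinase of mitotic entry, read 5.56, 8.44 and 8.0 against 5.43, 6.16 and 5.53 (-2.51 ± 0.44, adjusted p = 0.0369 without mouse 7, adjusted p = 0.467 with all 12). Rrm2, the ribonucleotide reductase subunit of S phase, read 4.90, 7.91 and 6.82 against 5.36 to 5.63 (-1.88 ± 0.32, adjusted p = 0.0294 without mouse 7, adjusted p = 0.504 with all 12).

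All 25 measured cell cycle genes had a negative difference in the 12-array fit and in the fit without the low-range arrays. Those called without the low-range arrays were Cdk1, Rrm2, Ccna2, Aurka, Aurkb, Plk1 and Pcna, and the list median was -0.72 with all 12 arrays, -0.89 without mouse 7 and -1.21 without the low-range arrays. Plk1 (5.01 in mouse 9 against 4.67 to 5.69) and Pcna (8.76 against 8.41 to 8.91) were high in mouse 8 alone, at 7.28 and 10.27. The mean level of the list was 5.50, 6.57 and 6.08 in eosinophilic mice 7, 8 and 9, 5.10 to 5.15 in controls, 5.07 to 5.58 in mixed lungs and 5.18 to 5.54 in neutrophilic lungs, so that mice 8 and 9 stood above all others and mouse 7 fell within the neutrophilic range. Mki67 and Top2a, the common proliferation markers, separated the groups (7.33 to 8.01 against 5.37 to 6.79, and 6.14 to 6.97 against 4.58 to 5.23) without being called in these 3 fits. Birc5 did not: 4.39 to 5.67 against 4.41 to 5.22. Cks1b, the Cdk1-binding subunit, read 8.21 in mouse 8 but 5.42 in mouse 9 and 4.76 to 5.57 in neutrophilic lungs, so its call without the low-range arrays (-3.05 ± 0.51, adjusted p = 0.0141) rests on mouse 8. Knstrn, a kinetochore protein, separated the groups at 5.29 to 7.25 against 4.44 to 5.06 (-2.56 ± 0.38, adjusted p = 0.00711 without the low-range arrays).

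Promoters of Cdk1 and Cks1b are shown because they carry both elements typical of genes expressed in G2 and mitosis. Capitals mark the CCAAT box (CCAAT) and the cell cycle homology region (TTTGAA), each searched on both strands and so in part shown reversed.
Cdk1, chr10:69352913-69353032, - strand: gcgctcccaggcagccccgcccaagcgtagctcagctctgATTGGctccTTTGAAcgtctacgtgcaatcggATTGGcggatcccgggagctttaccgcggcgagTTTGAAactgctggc
Cks1b, chr3:89418292-89418411, - strand: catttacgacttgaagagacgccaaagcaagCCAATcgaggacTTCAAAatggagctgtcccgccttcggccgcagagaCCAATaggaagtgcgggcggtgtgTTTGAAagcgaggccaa
Over 250 bases, 33.8% of all windows hold CCAAT, 16% hold TTTGAA and 5.55% hold both. Of the 21 listed cell cycle genes with a window 18 hold CCAAT and 8 hold both; the 8 include Cdk1, Mki67 and Top2a.

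Transport, airway and vessel genes completed the set. Kcnj13, a potassium channel, read 5.66, 6.25 and 6.59 in eosinophilic and 4.65, 4.37 and 4.65 in neutrophilic lungs, both below the control range of 7.43 to 7.75. It missed the threshold with all arrays (log2 -1.61 ± 0.29, SE, adjusted p = 0.0686) and passed without mouse 7 (-1.86 ± 0.26, adjusted p = 0.00993) and without the low-range arrays (-1.74 ± 0.31, adjusted p = 0.0152). Cckar, the cholecystokinin receptor, read 6.0, 7.44 and 7.35 against 5.50, 5.71 and 5.98 and passed in the same reduced fits (-1.67 ± 0.30, adjusted p = 0.0476 without mouse 7, adjusted p = 0.407 with all 12). Hpgd, which inactivates prostaglandins, was 10.37 and 9.15 in mice 8 and 9, 7.57 to 8.33 in neutrophilic and 10.92 to 11.63 in control lungs (-2.52 ± 0.39, adjusted p = 0.00962 without the low-range arrays, adjusted p = 0.806 with all 12). Calcrl, the endothelial receptor for adrenomedullin, was 11.17 and 10.35 in mice 8 and 9 and 8.92 to 9.98 in neutrophilic lungs; its difference was -2.21 ± 0.29 (adjusted p = 0.00276) without the low-range arrays and 0.11 ± 0.95 (adjusted p = 0.966) with all 12, where mouse 7 read 6.06. Blood endothelium as a list had 1 of 18 genes called, Calcrl, and medians of -0.56 and 0.57 in these fits. Scgb3a2, a secretoglobin of club cells, read 5.07 to 5.76 in eosinophilic and 6.85 to 7.20 in neutrophilic lungs, without overlap, and was not called with all arrays (1.65 ± 0.30, adjusted p = 0.0749) or without the low-range arrays (adjusted p = 0.0852).

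The remaining genes that the rule named as lower were Clec1a, Lztfl1, Zfp825 and Zfp971. Each was named from the fit without the low-range arrays, where mouse 8 is the eosinophilic group, and mouse 8 read 7.49 to 8.67 in all 4. For Clec1a, Zfp825 and Zfp971 mouse 9 read 4.13 to 6.35, against 4.95 to 6.97 in neutrophilic lungs, and was above all 3 neutrophilic mice for none. For Lztfl1 mouse 9 read 6.05 and mouse 7 read 5.11, against 4.65 to 5.33 (log2 -1.77 ± 0.38, SE, adjusted p = 0.121 without mouse 7). Over all 152 genes called lower in that fit, 59 had mouse 9 above all 3 neutrophilic mice, and 10 were also called without mouse 7. Of the 113 called higher there, 72 had mouse 23 above all 3 eosinophilic mice, and 27 were also called without mouse 7.

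**Figure D5:**
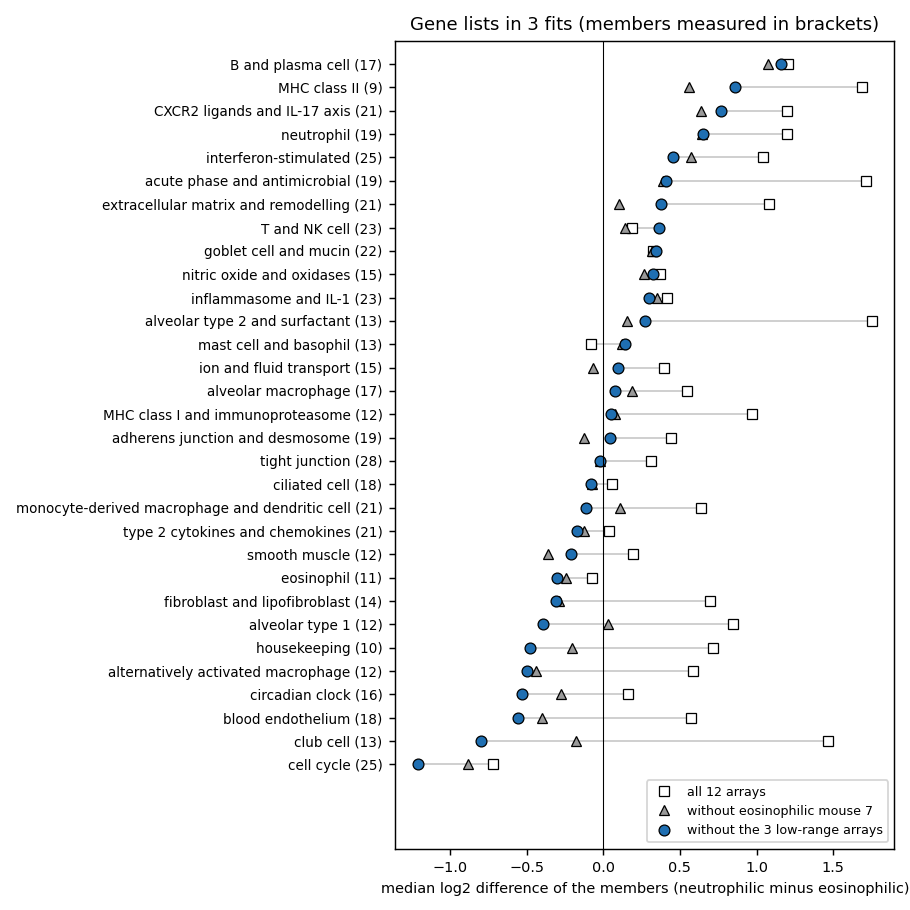
Median log2 difference (neutrophilic minus eosinophilic, x axis) of the measured members of each gene list (y axis, number measured in brackets) with all 12 arrays, without eosinophilic mouse 7 and without the 3 low-range arrays. Lists of abundant lung cell genes, such as surfactant (1.75 and 0.27) and club cell genes (1.46 and -0.80), move most when arrays are left out, while B and plasma cell genes (1.21 and 1.16) and cell cycle genes (-0.72 and -1.21) keep their side of 0.

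Lists of structural lung cells followed the low-range arrays. Housekeeping genes averaged 6.24 on the array of mouse 7 and 9.19 to 10.40 on the other 11, and their median difference was 0.72 with all 12 arrays and -0.48 without the low-range arrays, with 0 of 10 called in each. The surfactant, club cell, alveolar type 1, fibroblast and endothelial lists had medians between 0.57 and 1.75 with all 12 arrays and between -0.80 and 0.27 without the low-range arrays. Markers of tissues that dissection can bring along were called in no fit of the 3: skeletal muscle 0 of 11, fat 0 of 8, heart muscle 0 of 9 and thymus 0 of 7. The part of array range, cell number and tissue sampling in the differences above was not tested.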

How the data were processed

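RNA of 12 whole lungs was hybridised to 1 array each, in 4 groups of 3. The authors deposited log2 values. The submitters' processing notes name RMA and Affymetrix Expression Console; the version is not given in the sources used here. RMA normalizes arrays together, and the deposited values still differ in range. Of 34760 probe sets, 21640 stand for 1 gene in GEO's platform annotation; each of 19937 genes took its probe set with the highest mean over the 12 arrays. A linear model with 4 group means was fitted to all genes with limma 3.58.1 in R 4.3.3 (lmFit, eBayes), with Benjamini-Hochberg adjustment over all genes. The model was run on simulated data that held no low-range arrays, so that run does not show how such arrays affect it. Named genes were called genes with the largest differences, 15 in each direction (all 12 arrays first, then filled from the fit without the low-range arrays), and members of 37 gene lists; predicted, clone, micro RNA, snoRNA and olfactory names were left out. Groups, genes and lists were chosen with earlier results of these data known. Replicates are separate mice by label. Labels give no batch. 16 alternatives were run. The number of arrays limits the precision.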

Additional observations from a re-analysis of the deposited data

Results flagged for a closer look

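Signal appeared in probe sets that stand for no single gene and so entered no comparison above. When limma was fitted over all probe sets with the 12 arrays, 18 of the 13120 probe sets without a single gene were past the adjusted p of 0.05 between neutrophilic and eosinophilic lung. 15 of them were higher and 3 lower in neutrophilic lung, against 22 higher and 0 lower among the 21640 probe sets of a single gene. 3 of the 15 are listed with several genes; the others are unnamed here.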

How the results depend on the processing

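No paired analysis was possible because mouse numbers are not shared between the groups. Against 23 genes past the threshold (22 higher, 1 lower) with all 12 arrays, quantile normalization gave 9 (9 higher, 0 lower), centring arrays on the median 20 with 0 lower, limma with trend and robust settings 27 with 2 lower, and the 6 compared arrays alone 0, with 0 higher, 0 lower and 616 genes at an unadjusted p under 0.05. Those 616 are less than a share of 0.05 of the 19937 genes, which is expected with no difference at all. Adding array SD to the model gave 110 (73 higher, 37 lower), leaving out the 3 low-range arrays 265 (113 higher, 152 lower), and leaving out eosinophilic mouse 7 with quantile normalization 122 (82 higher, 40 lower). Leaving out each mouse in turn gave 0 to 2777 genes, 0 to 1688 higher and 0 to 1089 lower. Dim filters and averaging probe sets gave 25 or 26. Over 2561 values of 161 genes under the 16 alternatives, 2114 kept their direction and side of the threshold, 211 passed newly, 120 no longer passed and 114 changed sign without passing on either side. 2 reversed: Calcrl at -2.21 without the low-range arrays, and Zfp971 at 1.33 without eosinophilic mouse 8. Zfp971 was -0.07 with all arrays and ranged from -0.80 to 1.33 as each mouse was left out. List medians moved by more than the spread between mice in 25 of 592 cases. That spread was the larger SD of the list's mean level within the eosinophilic or neutrophilic mice, mouse 7 included. For club cell genes the eosinophilic means were 5.64, 9.90 and 9.20. Their median went from 1.46 with all 12 arrays to -0.80 without the low-range arrays and was not counted as moved. The count therefore does not show that the lists are stable. The cause of these changes was not tested.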
